A study of Mus musculus with 28 samples.

Results

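The genes described are those of the mitochondrial ribosomal proteins, taken as every gene symbol that begins with Mrpl or Mrps followed by a digit, measured in splenic dendritic cells. The rule found 77 such genes among 19938 genes whose probe set carried a single symbol, 48 named for the large subunit and 29 for the small subunit. A gene was tested when its value was above 5 on 3 or more of the 28 arrays, which 76 of the 77 members and 10452 genes in all reached. Mrps27 was the member that did not, with values of 3.13 to 5.27 and 1 array above 5. Of the tested members Mrpl22 had the lowest 3rd-highest value, with values of 3.29 to 5.58 and 10 arrays above 5. Mrpl47 was above 5 on fewer arrays, 7. Values are log2 signals, on which a difference of 1 is a 2-fold difference.

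Mitochondrial ribosomes are built from RNAs of the mitochondrial genome and from proteins that nuclear genes encode, and those proteins are made in the cytosol and imported. They translate the few messages of mitochondrial DNA, all of which encode subunits of the respiratory chain and ATP synthase. Some members descend from proteins of bacterial ribosomes and others are found only in mitochondria. Dendritic cells capture and present antigen to T cells.

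The cells came from spleens of mice aged 3 months, C57BL6/J wild type or GP91 Phox knockout, which lack NOX2, the catalytic part of the NADPH oxidase of phagocytes, encoded by Cybb. Of the 4 wild-type groups, 1 received vehicle (n = 7) and 1 received Ang II (angiotensin II, n = 4). In the other two Ang II was combined with 2-HOBA (2-hydroxybenzylamine, n = 4) or with the pair hydralazine and hydrochlorothiazide (Hyd/HCTZ, n = 6). Knockout arrays formed a vehicle group (n = 3) and an Ang II group (n = 4), and the study asked how oxidative stress affects the expression profile of these cells. Angiotensin II is a vasoconstrictor hormone, 2-HOBA scavenges reactive products of lipid oxidation, hydralazine dilates vessels and hydrochlorothiazide is a diuretic. Whether mice or isolated cells were treated was not settled by the labels, some knockout titles wrote Ang I where their descriptions wrote Ang II, and the sources used here gave no doses, durations, sort or pooling of mice. The labels name no promoter or cell type for the knockout.

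The 28 arrays were divided into 3 sets at the largest gaps along the first principal component of 998 control probe sets. Wild-type vehicle replicate 2 lay alone at the low end, at -25.95 with the next array at -14.39, and was joined to the set beside it. The first set held all 7 knockout arrays, together with replicates 1 to 3 of wild-type vehicle and 1 and 2 of wild-type Ang II. The second held all 4 arrays with 2-HOBA, the other wild-type Ang II arrays and replicates 4 to 7 of wild-type vehicle. All 6 Hyd/HCTZ arrays, and no others, formed the remaining set, so array set and Hyd/HCTZ treatment cannot be told apart. Cybb was at 6.41 to 7.18 in the knockout arrays and at 8.35 to 9.75 in wild-type arrays other than the library labelled wild-type vehicle replicate 2, where it was at 6.34. That array also had the lowest mean correlation with the others, 0.852. Results with and without it are given for the comparisons with Hyd/HCTZ. For the other comparisons with wild-type vehicle only the counts of called members are given without it, and for 2-HOBA also the median. The Hyd/HCTZ arrays had a wider spread of values, with interquartile ranges of 3.09 to 3.44 against 1.92 to 3.03 elsewhere, and their median tested gene was at 6.14 to 6.44 against 5.47 to 6.10.

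Of the 77 genes, 68 had a promoter window in the RefSeq table (build GRCm38.p6), running from 250 bases before to 50 bases after the start of the gene. Short motifs were searched as exact letters on both strands, and a match is a description of the window. The ETS core (CCGGAAG) was in 25 of 68 members, 36.8%, against 13.0% of 17492 protein-coding genes. The YY1 core (ATGGCGG) was in 12 members, 17.6% against 6.05%, and the NRF1 core (GCATGCG) in 8, 11.8% against 4.96%. ETS factors such as GABP, YY1 and NRF1 are known regulators of nuclear genes for mitochondrial proteins. An E-box (CACGTG) was in 7.35% of members against 8.91%, a CCAAT box (CCAAT) in 38.2% against 42.3%, and a GC box (GGGCGG) in 50% against 49.2%. The E-box reads alike on both strands, and matches of different motifs were allowed to overlap. Median GC content was 58.5% for the members and 56.3% for coding genes. The windows that follow belong to the member with the largest difference of each subunit, 1 example each of an NRF1 and a YY1 match, and the member whose value was lowest with Hyd/HCTZ relative to other genes. Each is written 5′ to 3′ on the strand of the gene, and capitals mark matches of the ETS, NRF1 or YY1 core on either strand.
Mrpl42: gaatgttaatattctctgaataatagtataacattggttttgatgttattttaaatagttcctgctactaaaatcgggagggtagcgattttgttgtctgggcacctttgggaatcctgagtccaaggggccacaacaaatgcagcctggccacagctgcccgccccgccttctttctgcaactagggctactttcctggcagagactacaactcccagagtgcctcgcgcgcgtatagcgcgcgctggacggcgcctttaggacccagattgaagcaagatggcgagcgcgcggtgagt
Mrps18c: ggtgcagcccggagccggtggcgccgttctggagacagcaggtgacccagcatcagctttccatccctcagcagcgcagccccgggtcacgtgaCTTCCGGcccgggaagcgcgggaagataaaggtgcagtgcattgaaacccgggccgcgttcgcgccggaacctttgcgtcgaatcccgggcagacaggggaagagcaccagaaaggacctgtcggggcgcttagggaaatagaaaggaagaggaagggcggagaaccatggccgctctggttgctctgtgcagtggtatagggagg
Mrpl32: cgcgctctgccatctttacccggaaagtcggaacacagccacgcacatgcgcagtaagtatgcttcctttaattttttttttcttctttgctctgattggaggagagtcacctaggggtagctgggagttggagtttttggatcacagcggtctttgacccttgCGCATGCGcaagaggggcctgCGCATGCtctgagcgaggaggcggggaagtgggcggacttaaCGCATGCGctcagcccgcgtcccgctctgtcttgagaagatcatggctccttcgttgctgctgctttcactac
Mrps11: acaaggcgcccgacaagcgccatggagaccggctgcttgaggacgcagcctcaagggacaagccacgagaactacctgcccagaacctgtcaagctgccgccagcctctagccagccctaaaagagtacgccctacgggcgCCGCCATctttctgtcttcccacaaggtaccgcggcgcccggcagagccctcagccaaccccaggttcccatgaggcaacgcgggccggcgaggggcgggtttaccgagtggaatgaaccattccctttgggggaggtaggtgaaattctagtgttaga
Mrps10: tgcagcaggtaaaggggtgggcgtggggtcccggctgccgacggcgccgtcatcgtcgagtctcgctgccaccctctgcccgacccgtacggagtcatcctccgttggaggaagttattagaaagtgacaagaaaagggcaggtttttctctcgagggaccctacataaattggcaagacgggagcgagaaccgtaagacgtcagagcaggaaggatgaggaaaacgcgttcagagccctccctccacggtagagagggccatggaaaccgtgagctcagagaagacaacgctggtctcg
Mrpl42 lies at chr10:95501900-95502199 on the minus strand, and its window held none of these 3 cores. Mrps18c lies at chr5:100798509-100798808 on the plus strand and held an ETS core. Mrpl32 lies at chr13:14612988-14613287 on the minus strand, where the first and last stretch of capitals are overlapping NRF1 matches of both strands and the middle stretch is a match of the opposite strand alone. Mrps11 lies at chr7:78782881-78783180 on the plus strand and held a YY1 core. Mrps10 lies at chr17:47368947-47369246 on the plus strand and held none of the 3. Of the 68 members, 24 (35.3%) had another coding gene starting head to head within 1000 bases, against 8.48% of coding genes. Mrps11 and Mrpl46 are such a pair, with starts 42 bases apart and 141 bases shared by their windows.

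With Hyd/HCTZ added to Ang II, the signals of mitochondrial ribosomal protein genes were higher across both subunits. Of 76 tested genes 64 rose and 0 fell against Ang II alone, beside 40.8% of all tested genes that rose and 11.9% that fell. The median difference over the 76 was 0.94, against 0.32 over all tested genes. By subunit, 43 of 48 large-subunit genes rose with a median of 0.97, and 21 of 28 small-subunit genes rose with a median of 0.86. Since the median of all tested genes was itself above 0, each gene was also tested relative to that median. In that test 50 members rose (34 large, 16 small) and 1, Mrps10, fell, beside 23.7% of all genes that rose and 25% that fell. With quantile normalization between arrays the split of all tested genes went from 4261 higher and 1242 lower to 2519 and 1857, and that of the members to 48 and 0. Without the library labelled wild-type vehicle replicate 2, 68 members rose and 0 fell, beside 46% and 14.4% of all tested genes. These are limma tests across all tested genes with Benjamini-Hochberg adjustment, and a gene is called at an adjusted p below 0.05.

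Averaged over the tested large-subunit genes, the arrays were at 5.98 ± 0.31 (SD, n = 7) with vehicle, 5.98 ± 0.31 (n = 4) with Ang II, 6.15 ± 0.04 (n = 4) with 2-HOBA and 7.04 ± 0.10 (n = 6) with Hyd/HCTZ. In the knockout they were at 6.01 ± 0.19 (n = 3) with vehicle and 5.85 ± 0.11 (n = 4) with Ang II. The small-subunit averages in the same order of groups were 6.11 ± 0.24, 6.11 ± 0.19, 6.25 ± 0.05, 7.03 ± 0.10, 6.09 ± 0.13 and 6.01 ± 0.07. The 6 Hyd/HCTZ arrays lay at 6.89 to 7.17 over all tested members and every other array at 5.62 to 6.36, so the ranges did not overlap. The other 5 groups had means of 5.91 to 6.18 over all tested members, with SDs of 0.04 to 0.28. Among those 22 arrays the first array set ran from 5.62 to 6.15 and the second from 6.10 to 6.36.

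**Figure D1:**
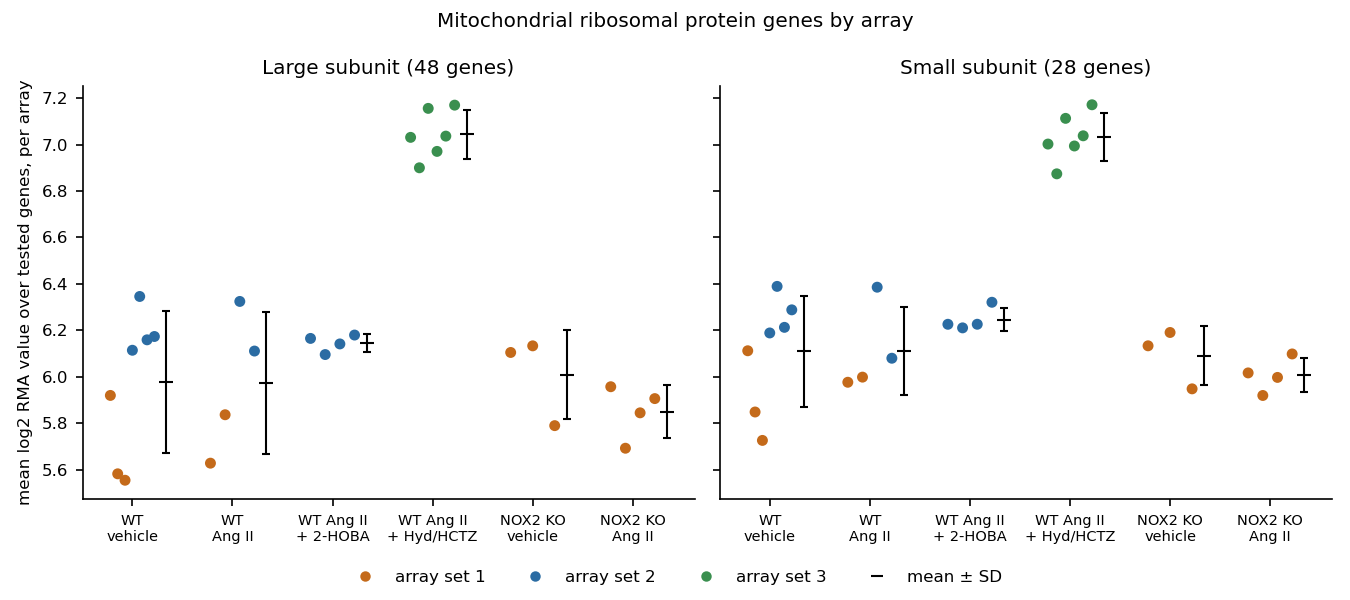
Mean log2 signal of the tested large-subunit (48 genes) and small-subunit (28 genes) mitochondrial ribosomal proteins on each array, by group, with points coloured by array set and the group mean ± SD. The 6 Hyd/HCTZ arrays lie above all 22 others in both panels, and the other 5 groups overlap.

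Gene by gene, 47 members (33 large, 14 small) had every Hyd/HCTZ array above all 22 other arrays, beside 20.2% of all tested genes. Against the Ang II arrays alone, 57 members did not overlap (39 large, 18 small), beside 34.4%. Genes could pass the level filter through their Hyd/HCTZ arrays alone, as Mrpl47 and Mrps11 did, and these counts were not repeated without such genes. The plot of all arrays shows this as a block of high values over most members, with exceptions in both subunits.

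**Figure D2:**
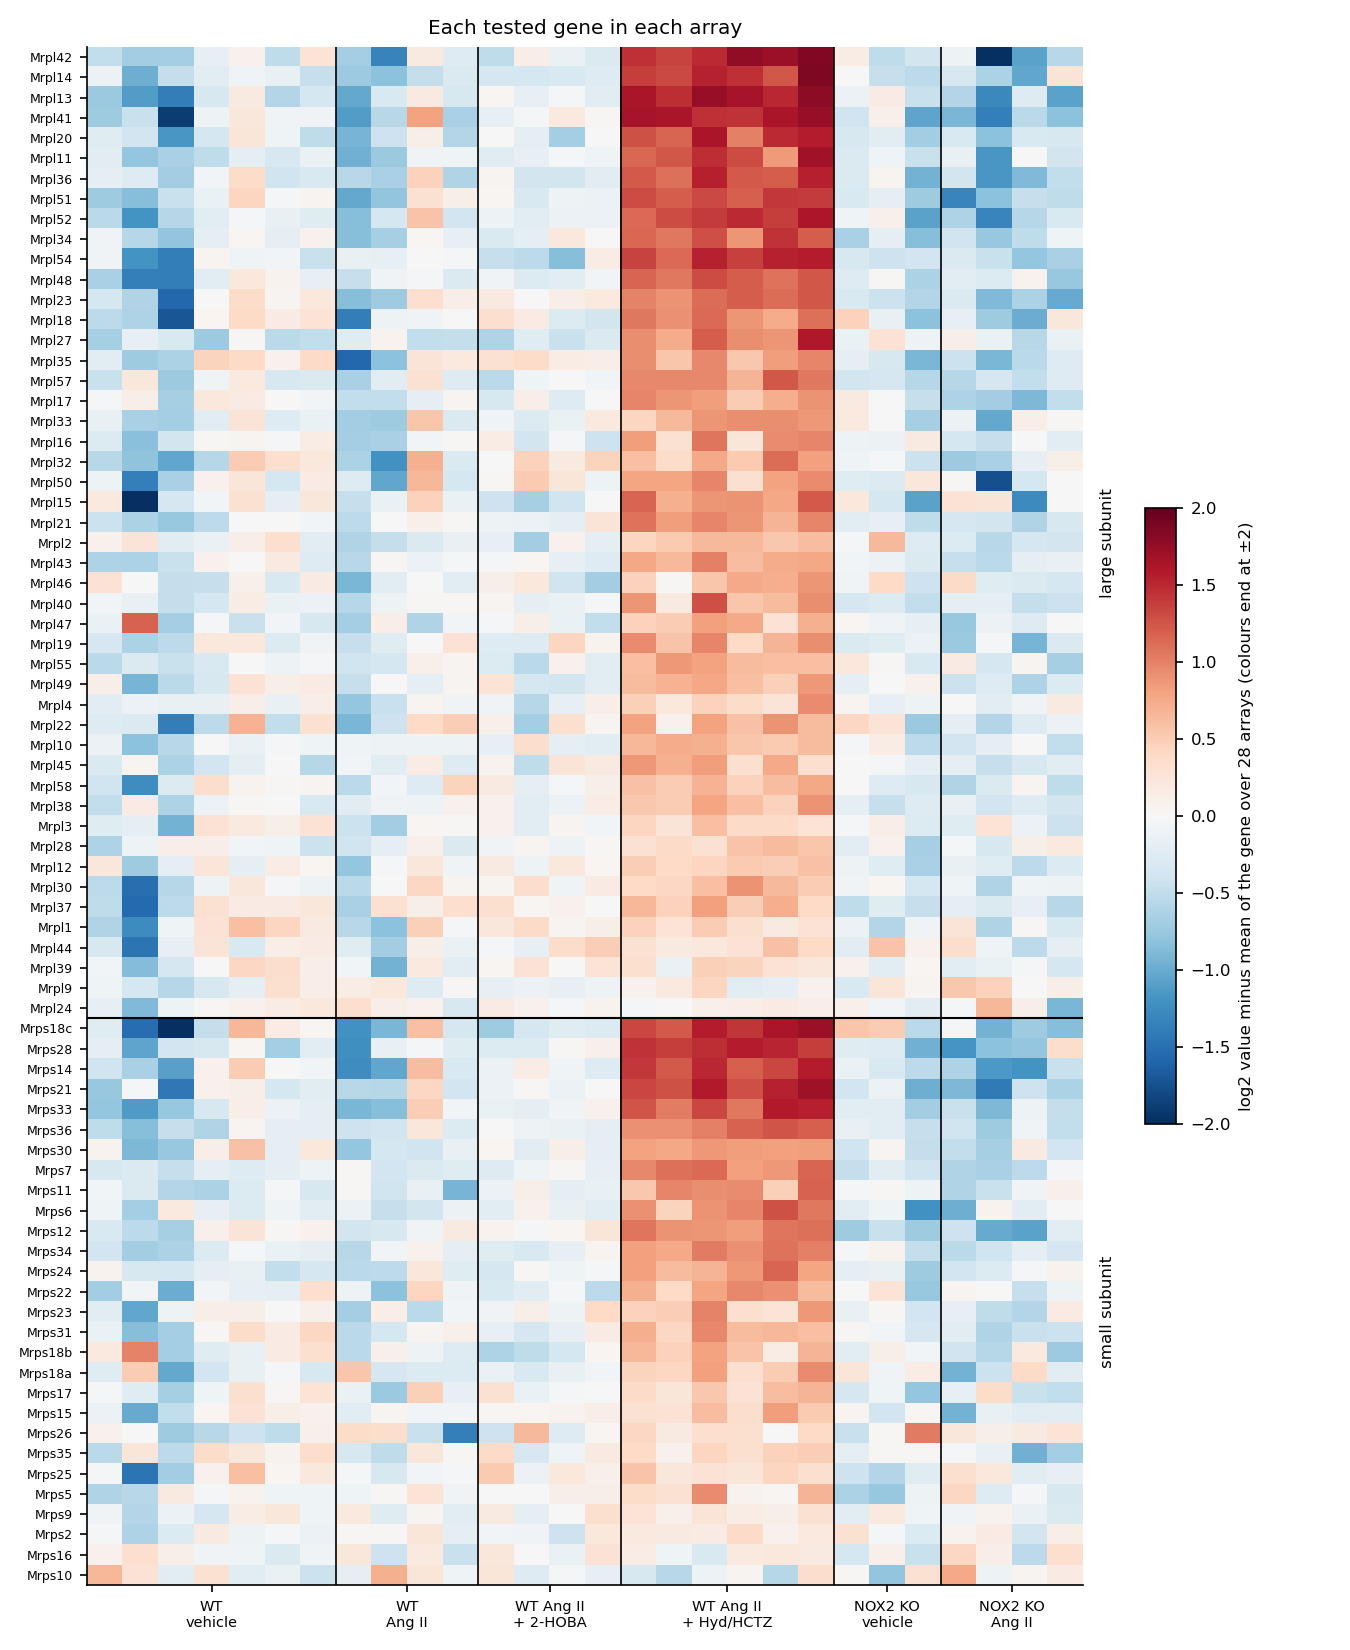
Log2 signal of the 76 tested mitochondrial ribosomal protein genes (rows) on the 28 arrays (columns), each as the difference from the mean of that gene over all arrays, with colours ending at ±2. The Hyd/HCTZ columns are high for most rows, and 47 rows have all 6 of those arrays above the other 22.

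The largest difference of the large subunit was that of Mrpl42, a protein found only in mitochondrial ribosomes. Its signal in the Ang II arrays was 7.37, 6.72, 8.23 and 7.80, and with Hyd/HCTZ its lowest, median and highest values were 9.41, 9.66 and 9.90. In the remaining groups it was 7.55, 8.19, 7.92 and 7.77 with 2-HOBA, 7.37, 7.56 and 8.33 as lowest, median and highest with vehicle, 8.21, 7.55 and 7.69 with knockout vehicle, and 7.95, 5.93, 6.98 and 7.49 with knockout Ang II. Every Hyd/HCTZ array was more than 1 unit above the highest of the others, while the other groups overlapped each other. The difference from Ang II was 2.13 (SE 0.285, 95% interval 1.55 to 2.71, adjusted p = 7.34e-07), or 4.38-fold, and 1.81 above the median gene.

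Mrpl14, which lies at the face turned to the small subunit, was at 5.37, 5.29, 5.63 and 5.80 with Ang II and at 7.34 to 7.96 with Hyd/HCTZ, median 7.51. The other groups ranged from 5.06 to 6.36, so Hyd/HCTZ stood apart from all of them. Its difference from Ang II was 2.04 (SE 0.199, adjusted p = 5.59e-09). Mrpl13 was at 5.04, 5.75, 6.24 and 5.75 with Ang II and at 7.55 to 7.84 with Hyd/HCTZ, median 7.70, a difference of 2.00 (SE 0.239, adjusted p = 1.33e-07). It had the largest difference from vehicle of any member, 2.25.

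Mrpl41, Mrpl20 and Mrpl11 followed. Mrpl41 was at 5.60, 6.16, 7.52 and 6.06 with Ang II and 8.16 to 8.46 with Hyd/HCTZ, a difference of 1.97 (SE 0.315, adjusted p = 8.96e-06). A second probe set for Mrpl41 gave 0.81, in the same direction. Mrpl20, an early binder of ribosomal RNA in bacteria, was at 5.06, 5.58, 6.11 and 5.41 and then at 7.01 to 7.62, a difference of 1.81 (SE 0.217, adjusted p = 1.38e-07). Mrpl11, at the base of the stalk that contacts translation factors, was at 5.93, 6.15, 6.82 and 6.81 and then at 7.74 to 8.57, a difference of 1.75 (SE 0.206, adjusted p = 1.1e-07). In all 3 genes the lowest Hyd/HCTZ array was above the highest Ang II array. Ang II replicate 3 was the highest of its group for each of them.

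Mrpl12, Mrpl3 and Mrpl58 rose against Ang II but did not pass relative to the median gene. Mrpl12, the stalk protein that recruits translation factors, was at 5.99, 6.74, 6.98 and 6.69 with Ang II and at 7.16 to 7.34 with Hyd/HCTZ. It rose by 0.65 (SE 0.178, adjusted p = 0.0035), and stood at 0.33 relative to the median gene (adjusted p = 0.128). Mrpl3, close to the peptidyl transferase centre, was at 6.32, 6.06, 6.80 and 6.78 and then at 7.02 to 7.35, a rise of 0.66 (SE 0.198, adjusted p = 0.00657). Mrpl58, a peptidyl-tRNA hydrolase that rescues stalled ribosomes, was at 5.51, 6.00, 5.81 and 6.50 and then at 6.52 to 6.84, a rise of 0.71 (SE 0.216, adjusted p = 0.00711). Relative to the median gene the adjusted p was 0.154 for Mrpl3 and 0.131 for Mrpl58. All 3 had Hyd/HCTZ arrays above every Ang II array, though for Mrpl58 the ranges nearly met.

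**Figure D3:**
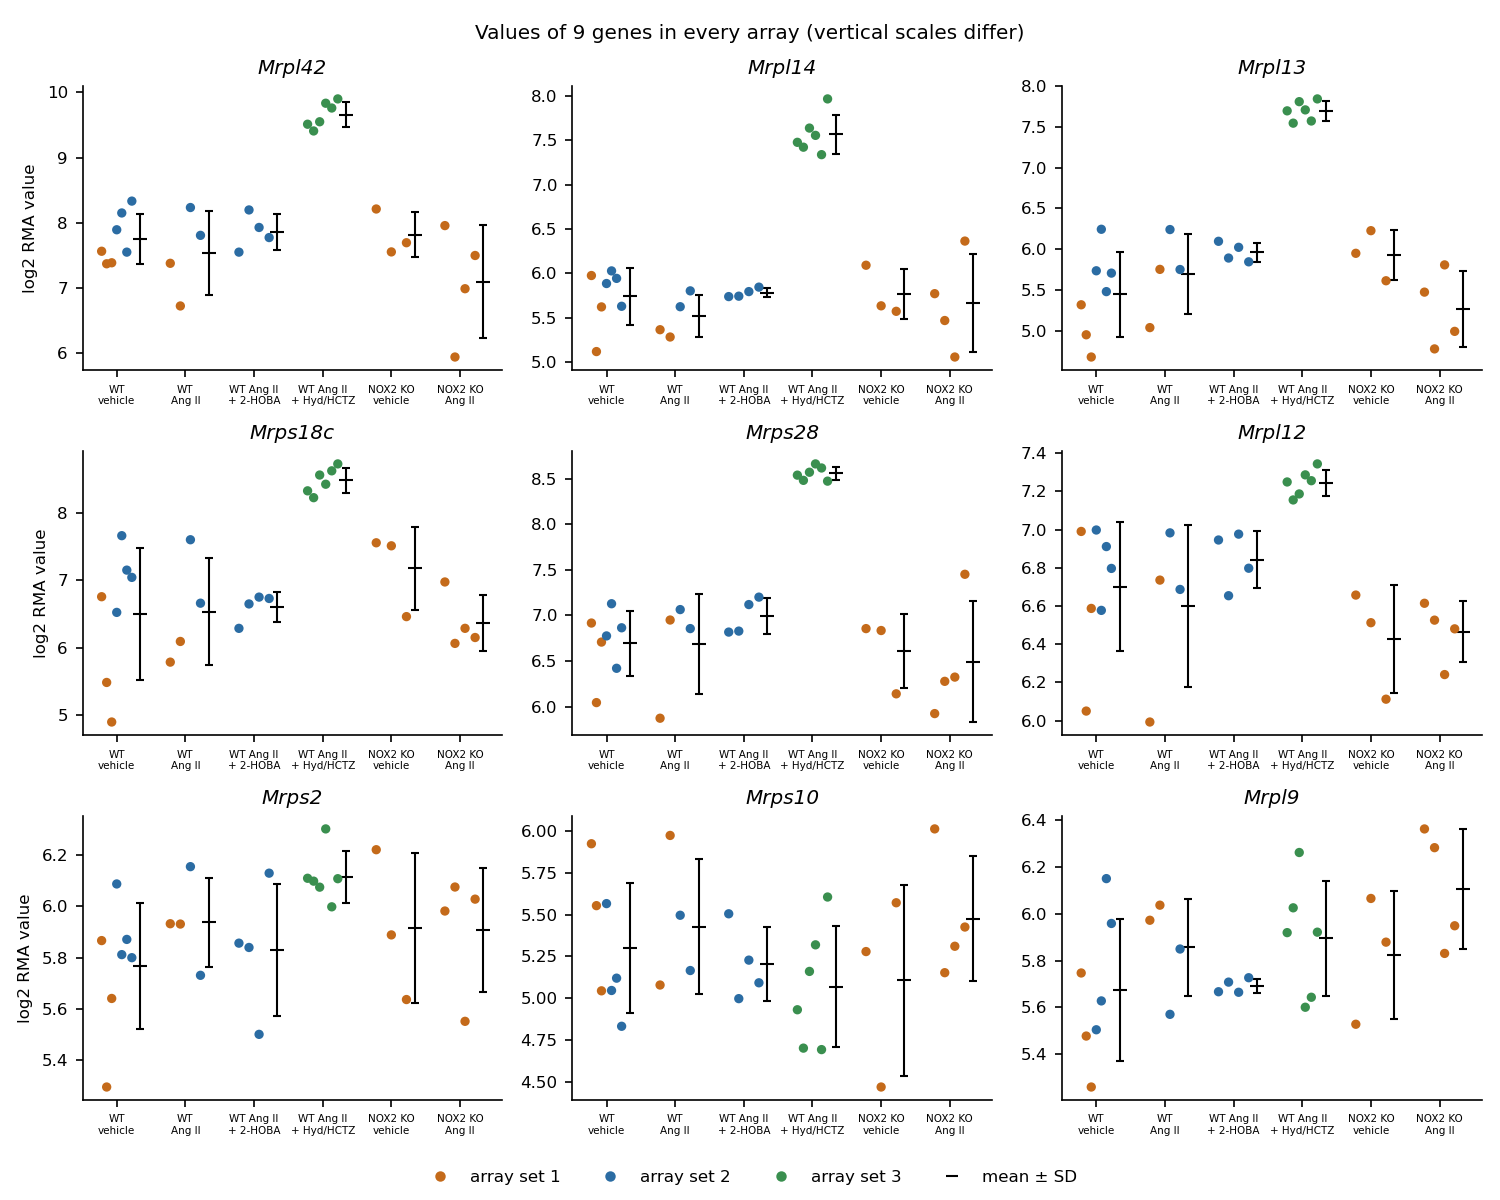
Log2 signal of 9 mitochondrial ribosomal protein genes on every array, by group. Mrpl42, Mrpl14, Mrpl13, Mrps18c and Mrps28 have all 6 Hyd/HCTZ arrays above the rest, Mrpl12 has them above the Ang II arrays by a narrower margin, and those of Mrps2, Mrps10 and Mrpl9 overlap the other groups.

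Among small-subunit names, Mrps18c had the largest difference. It is 1 of 3 relatives of a single bacterial protein, together with Mrps18a and Mrps18b. Its values with Ang II were 5.78, 6.09, 7.61 and 6.66, and with Hyd/HCTZ 8.23, 8.50 and 8.73 as lowest, median and highest. Values in the other groups ran from 4.89 to 7.67, below every Hyd/HCTZ array, and the Ang II arrays were themselves widely spread. The difference was 1.95 (SE 0.377, 95% interval 1.18 to 2.72, adjusted p = 1.01e-04). Mrps18b, at 6.04, 6.67, 6.47 and 6.31 and then at 6.73 to 7.38, rose by 0.76 (SE 0.227, adjusted p = 0.00657). Mrps18a, which structures place in the large subunit despite its name, was at 7.67, 6.77, 6.85 and 6.85 with Ang II and at 7.45 to 8.07 with Hyd/HCTZ. Its groups overlapped through Ang II replicate 1, and its rise of 0.66 (SE 0.232, adjusted p = 0.0183) was lost without Ang II replicate 2, 3 or 4 (adjusted p = 0.0687, 0.0521 and 0.053) and with the replicate number as a block (0.59, adjusted p = 0.0723). Relative to the median gene Mrps18a and Mrps18b did not pass (adjusted p = 0.226 and 0.11), while Mrps18c stood 1.64 above it.

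Mrps28 was at 5.87, 6.95, 7.06 and 6.86 with Ang II and at 8.47 to 8.66 with Hyd/HCTZ, a difference of 1.87 (SE 0.243, adjusted p = 4.56e-07). Its 6 Hyd/HCTZ arrays lay close together and above every other array. Mrps14 was at 5.75, 5.96, 7.61 and 6.69 and then at 8.19 to 8.57, a difference of 1.87 (SE 0.270, adjusted p = 2.21e-06). Mrps21 was at 6.85, 6.83, 7.83 and 7.03 and then at 8.68 to 9.10, a difference of 1.73 (SE 0.247, adjusted p = 1.95e-06). Mrps33 was at 5.99, 6.05, 7.40 and 6.84 and then at 7.92 to 8.48, a difference of 1.63 (SE 0.239, adjusted p = 2.75e-06). For all 3, the second of the array sets held the 2 higher Ang II arrays, and both were still below every Hyd/HCTZ array.

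Mrps12, a protein of the decoding centre, was at 7.58, 7.63, 7.88 and 8.13 with Ang II and at 8.79 to 9.05 with Hyd/HCTZ, a rise of 1.12 (SE 0.180, adjusted p = 9.85e-06). Mrps30, another name of the small subunit that structures place in the large one, was at 4.63, 5.05, 5.00 and 5.25 and then at 6.17 to 6.27, a rise of 1.24 (SE 0.216, adjusted p = 2.98e-05). Both also rose relative to the median gene, by 0.80 and 0.92. Mrps36, now known as a component of the 2-oxoglutarate dehydrogenase complex and not of the ribosome, was at 4.65, 4.68, 5.29 and 4.80 and then at 5.98 to 6.32, a rise of 1.29 (SE 0.165, adjusted p = 3.85e-07).

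A few members did not follow. Mrpl1, Mrpl9, Mrpl24, Mrps10 and Mrps16 were not called in any comparison with Hyd/HCTZ, and they were picked out after their values were seen. Mrps10 was at 5.08, 5.97, 5.50 and 5.17 with Ang II and at 4.69, 5.05 and 5.60 as lowest, median and highest with Hyd/HCTZ. It was the only member with a negative difference, -0.36 (SE 0.237, 95% interval -0.84 to 0.12, adjusted p = 0.204), and stood at -0.68 relative to the median gene (adjusted p = 0.0194). Mrpl24, which sits near the exit of the peptide tunnel, was at 8.39, 8.20, 8.15 and 7.74 and then at 8.03 to 8.23, a difference of 0.03 (adjusted p = 0.926). Mrpl9 differed by 0.04 (adjusted p = 0.863), Mrps16 by 0.17 (adjusted p = 0.462) and Mrpl1 by 0.57 (adjusted p = 0.0723), all with overlapping groups. Mrps2, at 5.93, 5.93, 6.16 and 5.73 and then at 6.00 to 6.30, did not pass against Ang II (0.18, adjusted p = 0.35) and stood at -0.14 relative to the median gene.

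**Figure D4:**
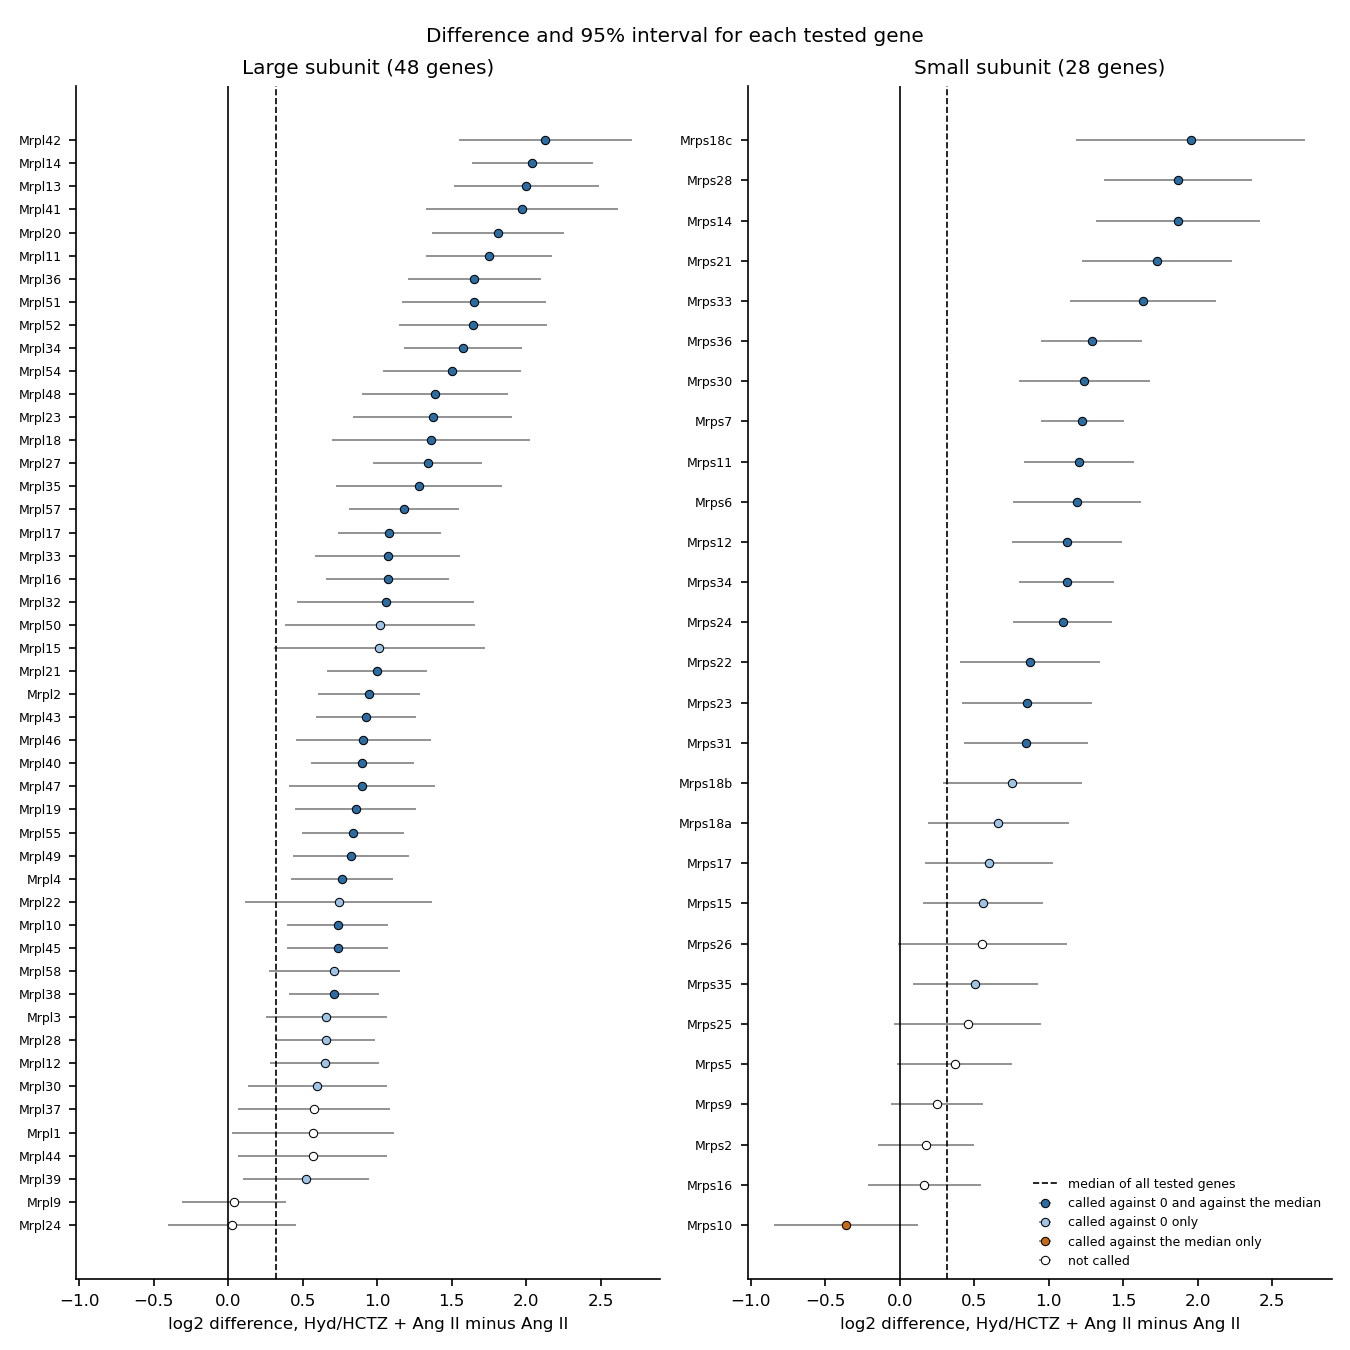
Difference in log2 signal between Ang II with Hyd/HCTZ and Ang II alone for each tested mitochondrial ribosomal protein gene, with its 95% interval; blue points were called by limma against 0 (dark blue also relative to the median gene), the orange point relative to the median gene alone, open points in neither, and the dashed line is the median of all tested genes, 0.32. The points run from -0.36 (Mrps10) to 2.13 (Mrpl42), and 64 of 76 are blue, all to the right of 0.

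The size of the difference was spread over the family. Genes with a bacterial counterpart were called higher in 40 of 48 cases and those found only in mitochondria in 24 of 28. Of all tested genes 40.8% were called higher and 11.9% lower. The rank correlation of the difference with the mean level of the gene in the other 5 groups was 0.09 across the 76 genes, and with the length of the gene -0.12, genes that share the same arrays. In the lowest, middle and highest of 3 classes by level the median differences were 0.88, 1.06 and 1.12, where all tested genes of the same ranges had 0.15, 0.38 and 0.43. Members also varied together within groups. The median correlation between members, over deviations from group means, was 0.31, and 82.0% of pairs were above 0, on arrays whose whole-array level differs too. Members with an ETS core had a median difference of 1.08 (n = 24) and those without 0.90 (n = 43). For the NRF1 core the medians were 0.75 (n = 8) and 0.95 (n = 59), and for the YY1 core 0.74 (n = 11) and 0.94 (n = 56). For the E-box they were 1.65 (n = 5) and 0.90 (n = 62). The CCAAT box gave 0.90 (n = 26) and 0.93 (n = 41), and the GC box 1.07 (n = 34) and 0.85 (n = 33).

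Of the 8 members with a second probe set, all gave the same sign on each. Some second probe sets were dim, with that of Mrpl47 above 5 on 0 arrays, that of Mrps36 on 6 and that of Mrpl27 on 9. The probe sets of Mrps33 differed by 1.63 and 1.41 between Hyd/HCTZ and Ang II, those of Mrps36 by 1.29 and 1.32, and those of Mrpl23 by 1.37 and 1.42. The probe set kept gave the larger difference for Mrpl51 (1.65 and 0.89) and Mrpl47 (0.90 and 0.46), as for Mrpl41, and the smaller for Mrpl27 (1.34 and 1.74) and Mrps5 (0.37 and 0.67). Mrpl47 and Mrps11 passed the filter on low values only through their Hyd/HCTZ arrays. With the filter taken on the 22 other arrays, 62 of 74 members were called higher and 0 lower, beside 39.1% and 12.2% of the 10081 genes then tested. Without any filter the count was 65 of 77 higher and 0 lower, beside 22.5% and 21.4% of 19938 genes.

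The same 6 Hyd/HCTZ arrays were also set against the arrays with 2-HOBA and against vehicle, so these comparisons are not independent of the first. Against 2-HOBA 52 members rose and 0 fell, beside 36% of all tested genes that rose and 9.72% that fell, with a median of 0.85 against 0.25. Relative to the median gene 44 rose and 0 fell, beside 23.2% and 21.1%, and 56 did not overlap, beside 35%. Against vehicle 69 rose and 0 fell, beside 43.4% and 13.2%, with a median of 0.94 against 0.31. There 50 rose relative to the median gene, beside 25.3%, Mrps10 fell (-0.54, adjusted p = 0.027) beside 27% of all genes, and 54 were higher without overlap, beside 25% (0 were lower without overlap, beside 3.62%). In all, 52 members were called higher in all 3 comparisons, beside 31.9% of all tested genes, and 41 relative to the median gene, beside 18.2%. Without the library labelled wild-type vehicle replicate 2 57 rose against 2-HOBA, beside 41.2%, and 65 against vehicle, beside 40.3%.

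Against 2-HOBA the largest difference was that of Mrps18c, at 6.29, 6.65, 6.75 and 6.73 with 2-HOBA, a rise of 1.88 (SE 0.377, adjusted p = 1.71e-04). Mrpl54 had the largest of the large subunit, with arrays at 5.98, 5.91, 5.59 and 6.59 against 7.57 to 8.01 with Hyd/HCTZ, a rise of 1.84 (SE 0.227, adjusted p = 2.35e-07). Against vehicle it rose by 1.87. Mrpl42 rose by 1.80 against 2-HOBA and 1.92 against vehicle, Mrpl14 by 1.78 and 1.82, and Mrpl13 by 1.73 and 2.25. Mrpl52 was at 6.35, 7.29 and 7.49 as lowest, median and highest with vehicle and at 8.67 to 9.15 with Hyd/HCTZ, a rise of 1.81 (SE 0.209, adjusted p = 4.4e-08). Mrps18b, Mrps18a and Mrpl3 overlapped between vehicle and Hyd/HCTZ. Mrpl12 did not pass against 2-HOBA (0.40, adjusted p = 0.0652), nor did Mrpl3 (0.42, adjusted p = 0.0824), and Mrps2 passed against vehicle (0.35, adjusted p = 0.0305).

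Other genes of mitochondrial gene expression, listed with earlier results of these data known, gave mixed counts in the same comparison of Hyd/HCTZ with Ang II, beside the same 40.8% and 11.9%. Of 4 mitoribosomal proteins with other symbols, 2 rose, Chchd1 by 1.00 and Gadd45gip1 by 0.70, while Dap3, a GTP-binding protein of the small subunit, was at 0.13 (adjusted p = 0.562) and Ptcd3 at -0.15. Of 15 translation factors and regulators 7 rose and 0 fell, with a median of 0.43. They included Tufm, the elongation factor that brings in aminoacyl-tRNA (1.40), Mtif3, an initiation factor (0.75), and Slirp, which stabilises mitochondrial messages (2.57). Of 23 genes for ribosome assembly and ribosomal RNA processing 9 rose and 1 fell, with a median of 0.29. The GTPases Noa1 and Eral1 rose by 1.36 and 0.74 and Malsu1 by 1.37, and the pseudouridine synthase Trub2 fell by 0.43.

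Of 13 genes for mitochondrial DNA and its transcription 5 rose and 1 fell, with a median of 0.31. Tfam, which packages mitochondrial DNA, rose by 1.15 and Polg2, the accessory subunit of its polymerase, by 1.03, while the catalytic subunit Polg fell by 0.37 (adjusted p = 0.036). Nrf1, the transcription factor whose core motif was searched, was at 0.08. Of 11 mitochondrial aminoacyl-tRNA synthetases 3 rose and 1 fell, with a median of -0.01. Yars2 rose by 1.11 and Tars2 fell by 0.37.

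Lists beyond translation differed in size. Of 27 protein import genes 23 rose and 0 fell, median 1.03, with the outer membrane proteins Tomm22 at 1.76 and Tomm5 at 1.59. Of 33 nuclear genes of the respiratory chain 31 rose and 0 fell, median 1.39, with Ndufb5 of complex I at 2.03, cytochrome c (Cycs) at 2.02 and Cox5b of complex IV at 1.45. The 2 measured genes of mitochondrial DNA itself fell, ND3 by 1.10 and COX2 by 0.96. Of 24 cytosolic ribosomal proteins 15 rose and 1 fell, median 0.49, with Rpl14 at 2.23 and Rps6 falling by 0.35. Relative to the median gene, where 23.7% of all tested genes rose and 25% fell, 25 of the 33 respiratory chain genes rose and 0 fell, and 15 of the 27 import genes rose and 1 fell. The other lists lay near or below the general share of rises. There 6 of 24 cytosolic ribosomal proteins rose and 2 fell, 3 of 15 translation factors rose and 1 fell, and 3 of 23 assembly genes rose and 4 fell. For mitochondrial DNA the counts were 4 and 3 of 13, for the synthetases 1 and 4 of 11, and for mitoribosomal proteins of other symbols 1 and 0 of 4.

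**Figure D5:**
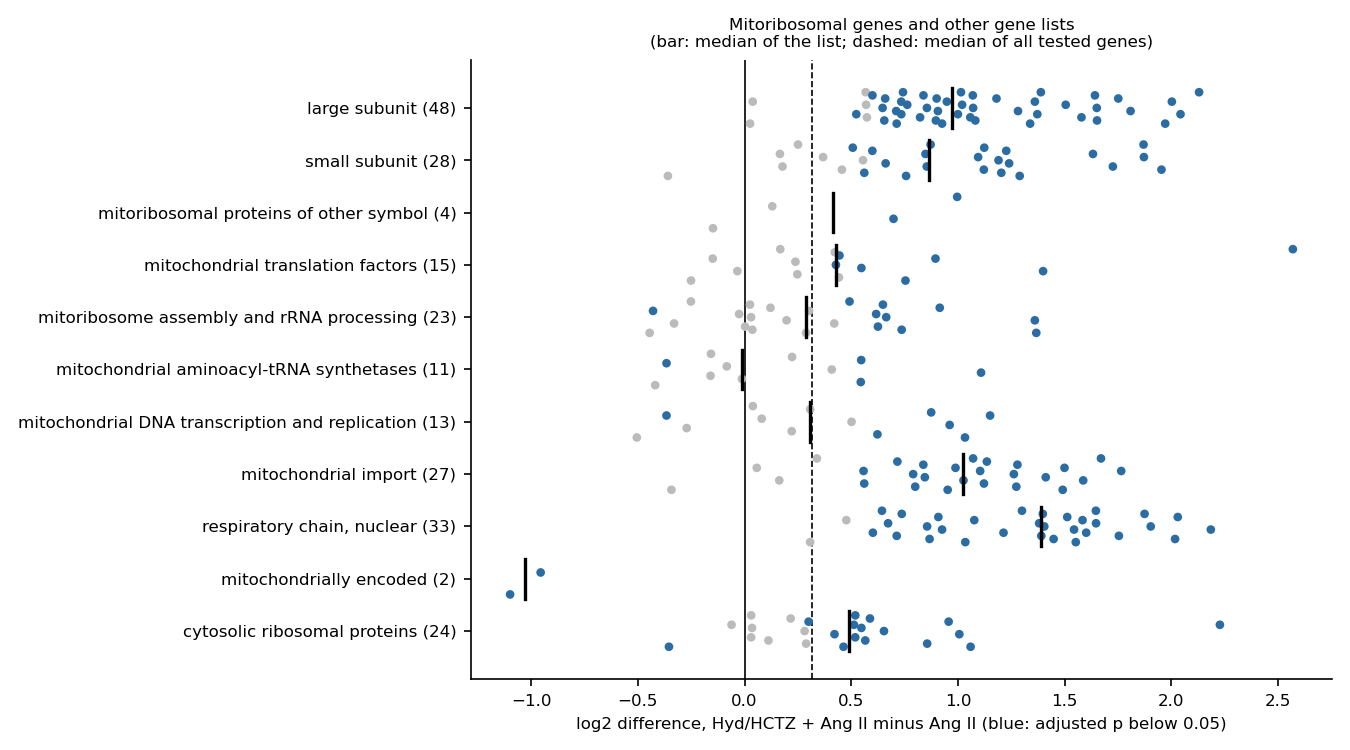
Difference in log2 signal between Ang II with Hyd/HCTZ and Ang II alone for the genes of each list, with blue points called by limma and a bar at the median of the list. Medians are 0.97 and 0.86 for the large and small subunit, 1.39 for nuclear respiratory chain genes, 1.03 for import genes, and -0.01 for mitochondrial aminoacyl-tRNA synthetases.

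Markers of cell types moved in the same comparison, where 40.8% of all tested genes rose and 11.9% fell. Of 14 dendritic cell markers 13 rose, and their mean level went from 7.84 to 8.33 over the Ang II arrays to 9.07 to 9.27 over the Hyd/HCTZ arrays. All 10 red pulp macrophage markers rose (6.88 to 7.90, then 7.85 to 9.31). Of 9 B cell markers 8 fell (7.61 to 8.61, then 5.76 to 6.83), as did 7 of 7 erythroid markers (5.15 to 6.61, then 3.98 to 4.61), 4 of 5 stromal markers (5.64 to 6.00, then 4.76 to 5.20) and 3 of 7 neutrophil markers (6.44 to 8.17, then 5.55 to 6.85). Of 7 T cell markers 1 rose and 2 fell (5.78 to 6.25, then 5.27 to 5.85). Relative to the median gene, where 23.7% of all tested genes rose and 25% fell, 10 dendritic and 6 red pulp macrophage markers rose. In that test 8 B cell, 7 erythroid, 4 stromal, 5 neutrophil and 5 T cell markers fell, and 1 T cell marker rose. The part of cell composition in the differences of the ribosomal proteins was not tested, and in bulk RNA fewer cells of a type and less RNA per cell cannot be told apart.

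The head-to-head neighbours of the members gave a further reading of the same regions. Of 16 tested neighbours that are not members themselves, 9 rose and 1 fell with Hyd/HCTZ against Ang II, beside the 40.8% and 11.9% of all tested genes. Of the 9, Ptcd2 (1.53) lies beside Mrps27, which was not tested. In the 15 pairs with both genes tested the median difference was 0.45 for the neighbours and 1.06 for the members. Both genes rose in the pairs of Mrpl18 (1.36) with Tcp1, a subunit of the cytosolic chaperonin (1.25), and of Mrpl32 (1.06) with Psma2, a proteasome subunit (1.54). In other pairs only the member was called, as in Mrps12 (1.12) and Sars2 (-0.16), Mrpl41 (1.97) and Pnpla7 (0.05), Mrps7 (1.23) and Gga3 (-0.19), and Mrpl43 (0.93) and the helicase gene Twnk (-0.27). Beside Ndufb5 (2.03) lies Mrpl47, and beside Mrpl46 (0.91) lies Mrps11. Mrpl47 and Mrps11 were tested only because of their high Hyd/HCTZ arrays, so their rises are not listed among the pairs named here. The counts above still hold Ndufb5 among the 9 neighbours that rose, and its pair with Mrpl47 among the 15. These pairs were picked after their values were seen.

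Ang II alone against vehicle, the comparison that asks for the effect of the hormone in wild-type cells, gave 0 called members and 0% of all tested genes. At an unadjusted p below 0.05, 0 members were higher and 1 was lower, Mrpl2 (-0.41, SE 0.163), beside 0.976% and 1.57% of all tested genes. Without overlap 0 members were higher or lower, beside 0.0861% and 0.144%. In 39 of 76 members the difference was positive, and the median was 0.01 against -0.00 for all genes. The 95% interval of a member reached a median of 0.42 to either side, so smaller differences could not be resolved for a typical gene. Ang II arrays of the first array set were low and those of the second high for many members, as in Mrpl35, at 4.40 and 5.15 in the first set and 6.24 and 6.17 in the second.

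With 2-HOBA added to Ang II, 0 members and 0% of tested genes were called. The medians were 0.15 against Ang II (65 of 76 positive, all genes 0.05) and 0.16 against vehicle (64 positive, all genes 0.05). Without wild-type vehicle replicate 2 the median of the members against vehicle was 0.11. At an unadjusted p below 0.05, 1 member was higher and 0 lower against Ang II, beside 1.82% and 1.81% of all tested genes. Against vehicle 2 were higher and 0 lower, beside 2.65% and 3.11%. All 4 arrays with 2-HOBA belong to the second array set. Within that set the median member differences were -0.05 and -0.04, and with array set as a block -0.07 and -0.01. The small positive medians were thus not found within the set, where the only Ang II arrays were replicates 3 and 4. Over all tested members those arrays were at 6.35 and 6.10, beside 6.14 to 6.23 with 2-HOBA. Mrpl35 had the smallest p against Ang II, with 2-HOBA values of 6.28, 6.35, 6.12 and 6.11 and a difference of 0.72 (SE 0.299, limma adjusted p = 0.977). Those values lay close to the Ang II arrays of the same set.

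In NOX2 knockout cells Ang II against vehicle gave 0 called members and 0% of tested genes. The median was -0.12 against -0.01 for all genes, with 21 of 76 positive, and all 7 arrays lie in 1 array set. At an unadjusted p below 0.05, 0 members were higher and 4 lower, beside 1.18% and 1.66% of all tested genes. Mrpl17 was at 5.07, 4.90 and 4.44 with vehicle and at 4.28, 4.20, 4.00 and 4.40 with Ang II. The groups did not overlap, with a difference of -0.58 (SE 0.200), which did not pass after adjustment by limma. Mrpl2 (-0.50) did not overlap either, and Mrpl13 stood at -0.67. In all, 1 member was higher and 4 lower without overlap, beside 2.2% and 2.58% of tested genes. The 95% interval here reached a median of 0.51 to either side.

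Knockout against wild-type vehicle gave 0 called members, beside 0% of tested genes higher and 0.00957% lower, with a median of 0.02 against -0.02. At an unadjusted p below 0.05, 1 member was higher and 1 lower, beside 2.5% and 3.79% of all tested genes. Within the first array set the median was 0.32, against 0.18 for all genes. The wild-type vehicle arrays of that set include replicate 2, whose Cybb was at 6.34, and no fit within the set was made without it. Knockout against wild-type Ang II also gave 0 called members, beside 0.00957% higher and 0.0383% lower, with 0 higher and 3 lower at an unadjusted p below 0.05, beside 3.06% and 3.77%. Its median was -0.12 against -0.03, and 0.02 for members and for all genes within the first array set. Mrps12 had the smallest p in both, -0.48 with vehicle (limma adjusted p = 0.719) and -0.54 with Ang II (limma adjusted p = 0.508). Its knockout values were 7.24, 7.50 and 7.23 with vehicle and 7.53, 6.94, 6.89 and 7.72 with Ang II, against 7.29 to 8.20 and 7.58 to 8.13 in wild type, so the groups overlapped.

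The difference of the Ang II effect between genotypes was tested as an interaction, which gave 0 called members and 0% of tested genes. At an unadjusted p below 0.05, 0 members were higher and 1 was lower, beside 1.28% and 1.18% of all tested genes. Mrpl13 had the smallest p, with an interaction of -0.92 (95% interval -1.67 to -0.17), which did not pass after adjustment by limma. The median over members was -0.14 against -0.01 for all genes, with 25 of 76 positive, and the interval reached a median of 0.66 to either side.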

How the data were processed

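RNA of splenic dendritic cells was hybridised to 28 arrays in 6 groups, which the labels call biological replicates. The deposited table holds log2 values per probe set, made by the authors with RMA and Partek 6.6, per the submitters' processing notes. RMA compresses the signal of dim probe sets, which can make fold changes of weakly expressed genes too small. No further scaling was applied, scanner intensities were not used here, and precision is limited by how many arrays each group has. Gene symbols came from GEO's platform annotation. Of several probe sets for a gene the brightest on average was kept, and genes above 5 on 3 or more arrays were tested.

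Group means were fitted with limma 3.58.1 (R 4.3.3) over all 28 arrays, with eBayes, two-sided tests and Benjamini-Hochberg adjustment over 10452 genes. The fit was repeated relative to the median difference of all tested genes. It was tested on simulated data.

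The members, gene lists and marker lists were chosen with earlier results of these data known. Named members are 10 fixed genes (among them Mrpl12, Mrps12 and Dap3), the 6 largest called rises and falls of each subunit relative to the median gene, the 3 smallest p values where none was called, and up to 3 genes of each other list with the smallest p plus 2 called against it. Others named were chosen after their values were seen: Mrps10, Mrpl9, Mrpl24, Mrps16, Mrpl1, Mrpl35 values by array, neighbours and members with promoters or second probe sets. Mrpl53 was on a probe set with several symbols and was not used here.

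Alternatives were other filters, quantile normalization, a common median, array weights, only the arrays compared, trended and robust eBayes, a block on the replicate number, every probe set kept, and fits without each array in turn. Array sets, a filter without the Hyd/HCTZ arrays and further fits without wild-type vehicle replicate 2 were added after the data were seen. Same-numbered arrays correlated at -0.35 to 0.37 in 57 pairs, 10 of them above 0.1, so the numbers were taken as names only. No arrays were identical.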

Additional observations from a re-analysis of the deposited data

Results flagged for a closer look

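Among 165 sets of values (31 members and the subunit means by group) tested for an array far from the rest of its group by Dixon's criterion, 7 were found, where chance gives about 1 in 20. Wild-type vehicle replicate 3 was the lowest of its group for Mrpl3, at 5.81 with the next at 6.52, and for Mrpl17, at 4.23 with the next at 4.84. Wild-type Ang II replicate 1 was the highest for Mrps18a, at 7.67 with the next at 6.85. Knockout Ang II replicate 2 was the lowest for Mrpl20, at 5.18 with the next at 5.66, and for Mrpl30, at 7.45 with the next at 7.96. Hyd/HCTZ replicate 4 was the highest for Mrps2, at 6.30 with the next at 6.11. The mean of the small-subunit genes was highest in 2-HOBA replicate 4, at 6.32 with the next at 6.23.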

How the results depend on the processing

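The reported counts of called members were 64, 52 and 69 (Hyd/HCTZ against Ang II, 2-HOBA and vehicle). Under all alternatives except a filter above 7 on the level, the counts lay within 1.5 times of these. That filter tested 38 members and called 35, 30 and 35 higher, beside 57%, 49.3% and 60.1% of all genes then tested. Relative to the median gene 50, 44 and 50 members rose, beside 23.7%, 23.2% and 25.3% of all tested genes. In that test Mrps10 fell against Ang II and against vehicle, beside 25% and 27%. The counts were 48, 41 and 50 with quantile normalization, beside 24.1%, 22.5% and 26.7% of all tested genes. They were 69, 57 and 70 with a common median, 68, 65 and 65 with array weights, and 57, 50 and 68 with a block on replicate number. In these last 3 settings 29.5% to 49.3% of all tested genes were called higher. Leaving out 1 array gave 59 to 68, 51 to 57 and 63 to 69. Of these fits, shares of all tested genes are given only for that without wild-type vehicle replicate 2. It called 68, 57 and 65 members higher, beside 46%, 41.2% and 40.3%. The 7 comparisons without Hyd/HCTZ had 0 called members in every fit, leaving out 1 array (0 to 0), the replicate block (0) and array sets included, except that array weights called 5 in knockout against wild-type vehicle, 1 higher and 4 lower, beside 1.82% and 11.9% of all tested genes, with Mrps12 at -0.60 and Mrpl27 at 0.59 among them; the cause was not tested. Over the named members 1442 alternative values kept direction and call, and 14 lost their call. Mrps2 changed sign, with -0.14 under quantile normalization and -0.14 relative to the median gene. Mrpl12, Mrpl3, Mrpl58, Mrps18a and Mrps18b lost their call against Ang II in these same fits.

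The 6 Hyd/HCTZ arrays form an array set of their own, so set and treatment cannot be told apart. Detection calls were not used here, and members near the level threshold, such as Mrpl22, Mrpl47 and Mrps11, are the least firmly measured. Genes rose or fell on a scale where the median of all tested genes moved by 0.25 to 0.32 in these 3 comparisons. That median depended on the filter. Against Ang II, 2-HOBA and vehicle it was -0.15, -0.13 and -0.16 over all 19938 genes without a filter. With a filter above 7 it was 0.64, 0.52 and 0.61.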
